A study of Mus musculus with 6 samples.

Results

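The 10 genes described here are those by which white adipocytes are usually recognised, chosen by symbol as the rows Adipoq, Lep, Retn, Cfd, Plin1, Plin4, Cidec, Lpl, Fabp4 and Car3 among 56941 genes in the count table, and all 10 passed the filter on low counts that left 32149 genes for testing. RNA of FACS sorted hair follicle stem cells (HFSCs), gated as CD34+/α6-integrin+, was sequenced from dorsal skin of female mice at postnatal day (PD) 68, with 3 libraries labelled WT and 3 labelled Dab2-cKO. Mice of strain B6;129S4-Dab2tm1Cpr/J were used, and every mouse in either group was homozygous for the floxed Dab2 allele and had been given tamoxifen at 75 mg/kg for 5 days. The Dab2-cKO mice carried in addition 1 copy of K14CreER, a tamoxifen-inducible Cre driven by the promoter of keratin 14 in basal keratinocytes, which the WT mice lacked. Fat was scraped from the dermal side of the skin before trypsin digestion and sorting.

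White adipocytes store triglyceride in 1 large lipid droplet whose coat proteins control access of lipases, and they take up fatty acids that lipoprotein lipase releases from circulating lipoproteins. They also secrete hormones, the adipokines, among them adiponectin and leptin. In the skin a layer of dermal adipocytes lies beneath the hair follicles and is known to expand and shrink with the hair cycle. Several of the 10 genes are also used outside adipocytes: Fabp4 in capillary endothelium and macrophages, Lpl in muscle and macrophages, and Car3 in skeletal muscle.

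The libraries held 7040032 to 11696457 counts each, and replicates of a group differed beyond sampling noise. Dab2, the targeted gene, went against its label. Its normalized count was 309 to 338 in the WT-labelled libraries and 1300.2 to 1434 in the Dab2-cKO-labelled ones, a log2 fold change of 2.08 (SE 0.08, adjusted p = 3.04e-34 by edgeR's quasi-likelihood test). The counts are per gene, so they do not separate a transcript without the deleted exons from an intact one. Every direction below is therefore that of the Dab2-cKO-labelled libraries over the WT-labelled ones, and depends on those labels. Of the sort markers, the normalized count of Cd34 was 510 ± 53.2 (SD, n = 3) in the WT-labelled libraries and 1780 ± 35.6 (SD, n = 3) in the Dab2-cKO-labelled ones, and that of Itga6 was 960 ± 41.5 and 1409 ± 47.8. Krt14, a keratin of basal keratinocytes whose promoter drives the Cre, stood at 6378 ± 420 and 11472 ± 255, and both sort markers and Krt14 were present in every library. All 3 were called higher in the Dab2-cKO-labelled libraries by edgeR, Itga6 with an adjusted p of 9.58e-10, a call that was lost with library size only (log2 fold change 0.13, adjusted p = 0.0756 by edgeR).

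The 250 bases upstream of the annotated start of the canonical transcript are shown for 6 of the genes: 4 that differed between the groups and the adipokines Lep and Retn, which did not move with them. The letters are those of GRCm39, 5′ to 3′ on the strand of the gene. Capitals mark a match to a C/EBP site (TTGCNNAA) or an EBF site (TCCC and GGGA spaced by 2 bases), the sites of transcription factor families with known roles in adipocyte differentiation.
Adipoq: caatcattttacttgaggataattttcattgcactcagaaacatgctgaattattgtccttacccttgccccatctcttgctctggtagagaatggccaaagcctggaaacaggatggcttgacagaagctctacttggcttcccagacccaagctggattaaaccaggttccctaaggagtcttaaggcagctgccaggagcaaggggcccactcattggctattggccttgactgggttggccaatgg
Cfd: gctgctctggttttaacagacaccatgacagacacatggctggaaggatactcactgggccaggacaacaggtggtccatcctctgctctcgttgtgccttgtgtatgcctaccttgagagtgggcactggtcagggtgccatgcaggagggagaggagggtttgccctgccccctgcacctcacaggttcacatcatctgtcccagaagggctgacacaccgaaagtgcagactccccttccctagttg
Plin4: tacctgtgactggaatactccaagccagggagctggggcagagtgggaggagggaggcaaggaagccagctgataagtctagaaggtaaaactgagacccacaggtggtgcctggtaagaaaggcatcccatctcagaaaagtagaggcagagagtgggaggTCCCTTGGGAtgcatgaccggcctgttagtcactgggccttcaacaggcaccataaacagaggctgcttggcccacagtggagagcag
Lpl: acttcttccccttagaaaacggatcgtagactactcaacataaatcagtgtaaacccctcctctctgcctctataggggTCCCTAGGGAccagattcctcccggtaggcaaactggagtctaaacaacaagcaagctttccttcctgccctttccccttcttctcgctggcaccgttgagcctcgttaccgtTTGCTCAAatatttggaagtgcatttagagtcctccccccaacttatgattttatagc
Lep: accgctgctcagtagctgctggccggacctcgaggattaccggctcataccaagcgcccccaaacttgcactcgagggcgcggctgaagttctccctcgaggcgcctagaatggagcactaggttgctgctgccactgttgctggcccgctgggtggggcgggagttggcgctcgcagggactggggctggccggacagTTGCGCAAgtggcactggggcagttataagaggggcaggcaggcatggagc
Retn: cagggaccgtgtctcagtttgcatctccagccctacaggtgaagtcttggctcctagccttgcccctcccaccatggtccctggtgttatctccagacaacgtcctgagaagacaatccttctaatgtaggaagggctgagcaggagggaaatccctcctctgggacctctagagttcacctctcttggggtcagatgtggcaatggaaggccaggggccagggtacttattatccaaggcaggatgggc
The windows lie at chr16:22965036-22965285 (+) for Adipoq, chr10:79726418-79726667 (+) for Cfd, chr17:56416932-56417181 (−) for Plin4, chr8:69332893-69333142 (+) for Lpl, chr6:29059966-29060215 (+) for Lep and chr8:3705515-3705764 (+) for Retn. Searched on both strands, the C/EBP letters were found upstream of 2 of the 10 genes, as TTGCGCAA beginning 51 bases before the start of Lep and as TTGCTCAA beginning 58 bases before that of Lpl, and upstream of 9.34% of 21770 protein-coding genes. EBF letters were found upstream of Plin4 (TCCCTTGGGA, 88 bases before the start) and Lpl (TCCCTAGGGA, 171 bases before), and upstream of 0.882% of protein-coding genes. The DR1 letters, AGGNCA repeated after 1 base on either strand, and TATAAA, on the strand of the gene, were in none of the 10 windows, against 0.349% and 8.03% of all windows. Lep, which was lower in the Dab2-cKO-labelled libraries, and Lpl, which was higher, thus both held a C/EBP match. The windows of these genes also differed in base composition, from 34% G and C upstream of Fabp4 to 65.2% upstream of Lep.

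The main comparison asked how the transcriptome of HFSCs at PD68 differed between the genotypes, and here it was read for the adipocyte genes. Of the 10 genes, 8 rose in the Dab2-cKO-labelled libraries, 1 (Lep) fell and 1 (Retn) did not pass the test. By edgeR's quasi-likelihood test at an adjusted p under 0.05, 28.2% of all genes tested were called, 16.8% as higher and 11.5% as lower. Calls were common among all genes, and 8 of 10 higher calls stand against that 16.8%. That share depends on the filter on low counts. Among 14801 genes with a mean count of at least 50, 30.1% were called higher, again beside 8 of the 10. The median log2 fold change of the 10 genes was 1.47, and that of all genes tested was −0.02, with the middle 50% of genes between −0.36 and 0.34. For 8 genes every library labelled Dab2-cKO lay above every library labelled WT, a separation in that direction seen in 20.6% of all genes tested, beside 17.7% in the other direction. In these sorted bulk samples, more cells of a type and more RNA per cell cannot be told apart. The 10 genes together took 0.0949% ± 0.000802 (SD, n = 3) of all counts in the WT-labelled libraries and 0.210% ± 0.00732 (SD, n = 3) in the Dab2-cKO-labelled ones.

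**Figure D1:**
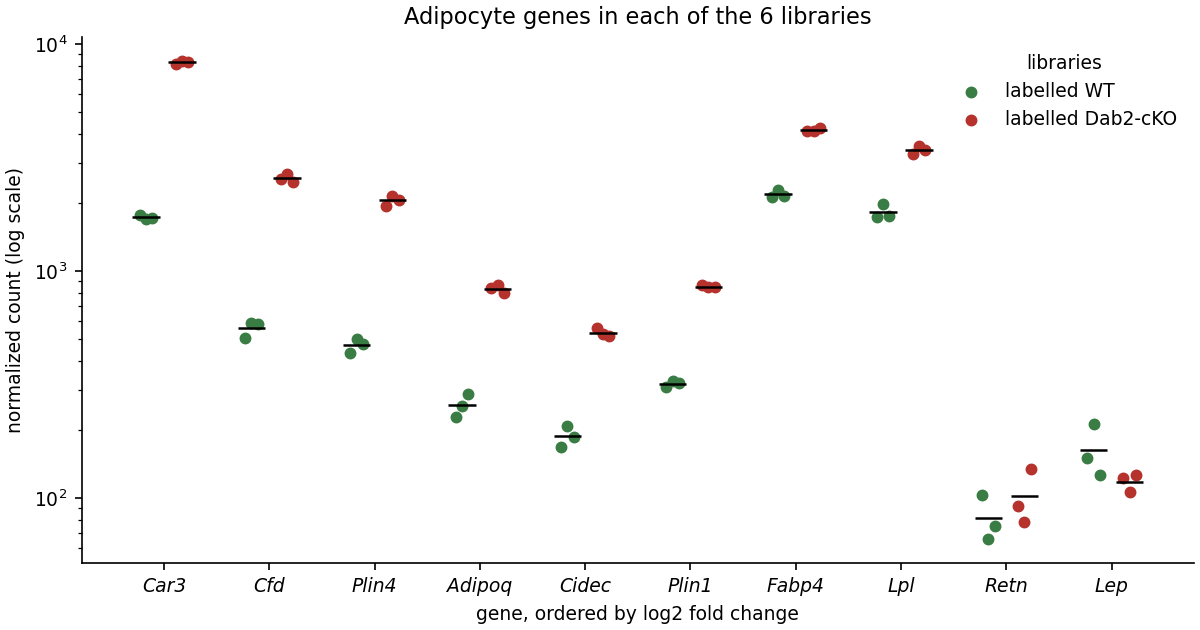
Normalized counts (log axis) of the 10 adipocyte genes in each of the 3 libraries labelled WT (green) and 3 labelled Dab2-cKO (red), with bars at the group means. From Car3 to Lpl the red points lie above all green points, and for Retn and Lep the groups overlap.

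Among the secreted proteins, Adipoq and Cfd rose. Adipoq (ENSMUSG00000022878, chr16:22964106-22976810 in GRCm39) encodes adiponectin, the insulin-sensitising hormone that adipocytes secrete in large amounts. Its normalized counts were 226, 255 and 285 in the WT-labelled libraries and 842, 863 and 796 in the Dab2-cKO-labelled ones. Without overlap between the groups, the log2 fold change was 1.70 (SE 0.09, adjusted p = 1.47e-26 by edgeR). Cfd (ENSMUSG00000061780, chr10:79726668-79728496) encodes adipsin, the complement factor D that starts the alternative pathway by cleaving factor B. For Cfd the normalized counts were 509, 590 and 582 in the WT-labelled libraries and 2549.9, 2687 and 2456 in the Dab2-cKO-labelled ones. Each library labelled Dab2-cKO held far more Cfd than any labelled WT, with a log2 fold change of 2.19 (SE 0.08, adjusted p = 3.24e-37 by edgeR).

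The hormones leptin and resistin did not rise with them. Lep (ENSMUSG00000059201, chr6:29060216-29073877) encodes leptin, the satiety hormone whose level follows fat mass. Its normalized counts were 150.3, 212 and 126 in the WT-labelled libraries and 122, 106 and 126 in the Dab2-cKO-labelled ones, so the third library of each group was at about the same level and the groups overlapped. The log2 fold change was −0.46 (SE 0.16, adjusted p = 0.0179 by edgeR), and it was the only one of the 10 genes called lower. The call rested on the second libraries: without WT replicate 2, the highest of all, the log2 fold change was −0.21 with an adjusted p of 0.464 by edgeR, and without Dab2-cKO replicate 2, the lowest, it was −0.42 with an adjusted p of 0.0545. It was also not made by DESeq2, whose adjusted p was 0.0604. Retn (ENSMUSG00000012705, chr8:3705324-3710689) encodes resistin, in mice a hormone of white adipocytes. Retn stood at 102, 65.9 and 75.2 normalized counts in the WT-labelled libraries and 92.5, 78.2 and 134 in the Dab2-cKO-labelled ones. The groups overlapped, and the log2 fold change of 0.33 (SE 0.19) had an adjusted p of 0.217 by edgeR. Retn had the lowest counts of the 10 genes, 68 to 121 a library, and its coefficient of variation was 23.4% and 28.3% among the replicates of the 2 groups.

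The ratio of Lep to Adipoq within a library does not depend on how libraries were scaled. For every 100 counts of Adipoq there were 66.5, 83.3 and 44.01 of Lep in the WT-labelled libraries, and 14.5, 12.3 and 15.8 in the Dab2-cKO-labelled ones. For Retn, the counts per 100 of Adipoq were 45.3, 25.9 and 26.3 against 11.0, 9.07 and 16.8. Both ratios were lower in every library labelled Dab2-cKO than in any labelled WT. These ratios were chosen after the values of the genes were seen and are given as a description.

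The 3 genes of lipid droplet coat proteins all rose. Plin1 (ENSMUSG00000030546, chr7:79369966-79382718) encodes perilipin 1, the coat protein through which hormone-stimulated lipolysis is gated. Its normalized counts were 308, 329 and 320 in the WT-labelled libraries and 863, 851 and 845 in the Dab2-cKO-labelled ones, with little spread within either group. The log2 fold change was 1.419 (SE 0.08, adjusted p = 4.41e-24 by edgeR). Plin4 (ENSMUSG00000002831, chr17:56406617-56416931) encodes perilipin 4, which coats small nascent droplets of adipocytes. Plin4 had normalized counts of 433, 499 and 478 against 1931, 2140.2 and 2064, a log2 fold change of 2.12 (SE 0.08, adjusted p = 4.72e-36 by edgeR). Cidec (ENSMUSG00000030278, chr6:113400691-113412721) encodes the protein also called FSP27, which fuses small droplets into large ones. The values were 168, 207 and 185 against 559.8, 525 and 518 normalized counts, a log2 fold change of 1.51 (SE 0.10, adjusted p = 6.39e-21 by edgeR).

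Within the libraries, the ratio of Cidec to Plin1 overlapped between the groups and that of Plin4 to Plin1 did not. There were 58.5 ± 4.22 counts of Cidec per 100 of Plin1 in the WT-labelled libraries and 62.6 ± 1.99 (both SD, n = 3) in the Dab2-cKO-labelled ones. For Plin4 there were 147 ± 6.05 and 240 ± 14.3 counts per 100 of Plin1 (both SD, n = 3). Of the exon sequence of Plin4, 39.1% is overlapped by the gene Hdgfl2 on the opposite strand. The libraries came from a stranded kit, but the strand setting of the counting is not given in the sources used here, so reads of the opposite strand may be included in its count.

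The 2 genes of fatty acid supply rose too. Lpl (ENSMUSG00000015568, chr8:69284603-69360100) encodes lipoprotein lipase, which releases fatty acids from circulating triglyceride. Its normalized counts were 1722, 1979.8 and 1755 in the WT-labelled libraries and 3279, 3536 and 3396 in the Dab2-cKO-labelled ones, and the groups did not overlap. The log2 fold change was 0.90 (SE 0.07, adjusted p = 5.20e-18 by edgeR). Fabp4 (ENSMUSG00000062515, chr3:10268785-10273737) encodes the fatty acid-binding protein of adipocytes, also called aP2. In normalized counts it stood at 2123, 2281 and 2132 against 4128, 4147 and 4258, a log2 fold change of 0.94 (SE 0.07, adjusted p = 2.56e-19 by edgeR). The gene Gm66293 lies on the opposite strand over 23.99% of its annotated exon sequence.

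Car3 (ENSMUSG00000027559, chr3:14928489-14937595) encodes carbonic anhydrase 3, a cytosolic enzyme abundant in white adipocytes and in slow skeletal muscle. Car3 had normalized counts of 1757, 1697 and 1714 in the WT-labelled libraries and 8176, 8447 and 8364 in the Dab2-cKO-labelled ones. The log2 fold change of 2.27 (SE 0.07, adjusted p = 9.42e-40 by edgeR) was the highest of the 10 genes. Car3 alone made up 22.2% ± 1.26 (SD, n = 3) of the counts of the 10 genes in the WT-labelled libraries and 36.3% ± 0.153 (SD, n = 3) in the Dab2-cKO-labelled ones.

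Compared per kb of annotated exon, the 10 genes spanned a wide range of levels. In the WT-labelled libraries, Cfd (581 normalized counts per kb) and Car3 (557) were highest with overlapping libraries, followed by Fabp4 (440), Lpl (149) and Adipoq (112), each apart from its neighbours. The lower levels were those of Cidec (60.4), Plin4 (58.8), Plin1 (50.2), Lep (48.4) and Retn (30.0). In that stretch only Plin4 and Plin1 were neighbours whose libraries did not overlap. In the Dab2-cKO-labelled libraries, Car3 (2693) and Cfd (2660) again overlapped at the top, followed by Fabp4 (843), Adipoq (366), Lpl (278), Plin4 (256), Cidec (173) and Plin1 (134), each apart from the next. Retn (37.5) and Lep (35.1) were lowest and overlapped. Adipoq and Plin4 thus stood above Lpl and Cidec, respectively, in the Dab2-cKO-labelled libraries and not in the WT-labelled ones. The order depends on the transcript length used: per kb of the canonical transcript, a length chosen after seeing the data, Fabp4, whose annotated exons cover its whole gene, came first in the WT-labelled libraries and second after Car3 in the Dab2-cKO-labelled ones. By that length Adipoq stayed below Lpl in the Dab2-cKO-labelled libraries as well (630 against 827 normalized counts per kb).

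Chemosensory receptor genes, which HFSCs are not known to use, gave the level of reads outside expressed genes. Over 1521 olfactory, vomeronasal and trace amine receptor genes, the 95th percentile was 12.4 normalized counts per kb in the WT-labelled libraries and 11.8 in the Dab2-cKO-labelled ones. The medians were 4.94 and 4.84. All 10 adipocyte genes lay above the 95th percentile in both groups, Retn and Lep by the smallest margin.

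**Figure D2:**
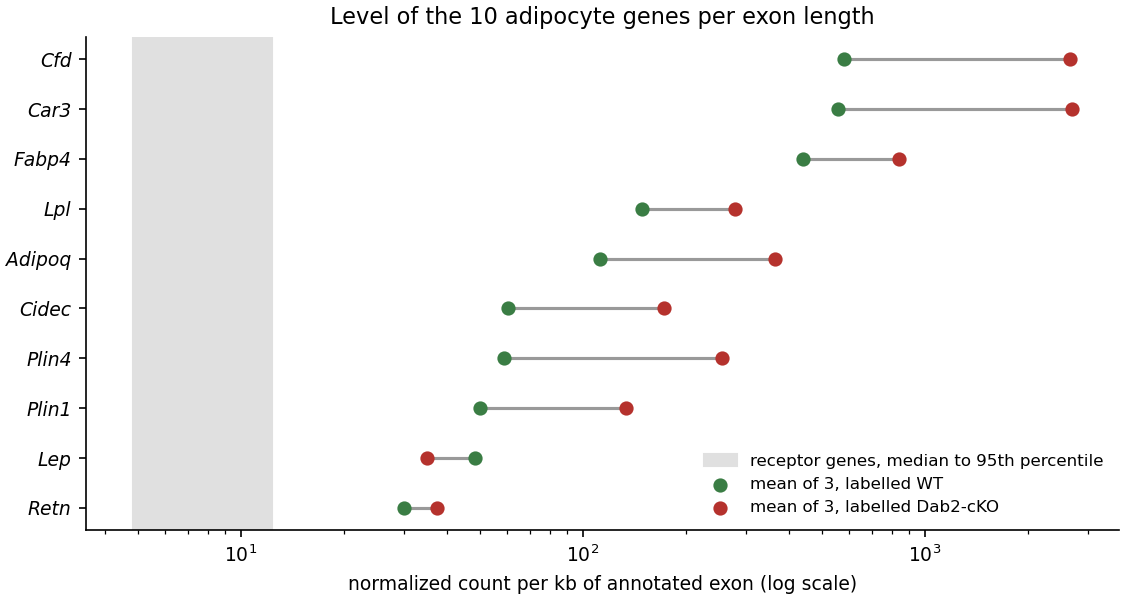
Mean normalized count per kb of annotated exon (log axis, 3 libraries per group) of the 10 adipocyte genes in libraries labelled WT (green) and Dab2-cKO (red), with the median to 95th percentile of receptor genes in grey. All 10 genes lie to the right of the grey band, Retn nearest to it in the WT-labelled libraries and Lep in the Dab2-cKO-labelled ones.

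The nearest relatives of the 10 genes that other skin cells use showed unequal differences. Fabp5, the fatty acid-binding protein of keratinocytes, had normalized counts of 3199 ± 278 and 3340.5 ± 33.95 (both SD, n = 3), a log2 fold change of 0.06 (SE 0.07, adjusted p = 0.602 by edgeR) whose sign turned to −0.08 under upper-quartile scaling and −0.36 with library size only. Counts of Fabp4 per 100 of Fabp5 were 68.3 ± 3.87 in the WT-labelled libraries and 125 ± 2.60 (both SD, n = 3) in the Dab2-cKO-labelled ones. Plin2, a droplet coat protein made in most cell types including sebocytes, rose by a log2 fold change of 1.38 (SE 0.09, adjusted p = 2.04e-22 by edgeR). There were 103 ± 6.004 counts of Plin1 per 100 of Plin2 in the WT-labelled libraries and 106 ± 7.87 (both SD, n = 3) in the Dab2-cKO-labelled ones, and the groups overlapped. Cidea, a droplet protein of brown adipocytes and sebaceous glands, rose from 74.6 ± 15.2 to 301 ± 28.3 normalized counts (SD, n = 3), a log2 fold change of 2.02 (adjusted p = 2.57e-20 by edgeR). Of the other perilipins, Plin3 rose by a log2 fold change of 0.82 and Plin5 by 1.16 (adjusted p = 1.90e-09 and 0.00261 by edgeR), though Plin5 was not called with library size only (log2 fold change 0.74, adjusted p = 0.0613) or against a 1.5-fold change.

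Other genes of adipocyte lipid metabolism mostly rose as well. Of 75 genes in 7 lists, 73 were tested, 61 were called higher, 2 lower and 10 not called by edgeR, with a median log2 fold change of 0.89. Of all genes tested, 16.8% were called higher and 11.5% lower. The counts of the lists depend on the scaling. With library size only, 46 of the 73 were called higher and 6 lower. By that scaling, 2686 of all 32149 genes tested (8.35%) were called higher and 11168 lower. The median of all genes tested then moved to −0.45 from −0.02 (to −0.17 under upper-quartile scaling). The 8 higher calls among the 10 adipocyte genes were made under both of these scalings. With a minimum mean count of 50, 57 of 67 genes of the lists were called higher, beside 30.1% of all genes kept by that filter.

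Of the adipogenic transcription factors, 10 of 11 rose and none fell, with a median log2 fold change of 0.66. With library size only 6 were called, and against a 1.5-fold change 5 were. Cebpd, an early factor of adipocyte differentiation, rose by a log2 fold change of 1.63 (SE 0.11) and Ebf1, a factor of adipocyte and B cell development, by 1.56 (SE 0.09). Cebpa, which maintains the differentiated state and is also made by keratinocytes, rose by 0.75 (SE 0.08). The log2 fold change of Cebpb, 0.27 (SE 0.09, adjusted p = 0.0164 by edgeR), turned to −0.15 with library size only. It was also not called by DESeq2 (adjusted p = 0.0507), under upper-quartile scaling, with a minimum mean count of 50, against a 1.5-fold change, or without WT replicate 1 or 3 or Dab2-cKO replicate 2 or 3, where it was 0.22 to 0.24. Pparg, the receptor that directs adipogenesis and was named for that role after its values were seen, rose from 97.0 ± 9.50 to 278 ± 29.9 normalized counts (SD, n = 3), a log2 fold change of 1.52 (SE 0.13).

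Of the genes of triglyceride and fatty acid synthesis, 12 of 15 rose and 2 fell (median 0.85). Pck1, whose enzyme supplies glycerol 3-phosphate for triglyceride in adipocytes, rose from 152 ± 15.5 to 1222 ± 23.5 normalized counts (SD, n = 3), a log2 fold change of 3.00 (SE 0.09). Elovl6, a fatty acid elongase, rose by 1.59 (SE 0.07) on the log2 scale. Fasn, the fatty acid synthase, had a log2 fold change of 0.27 (SE 0.07, adjusted p = 0.00133 by edgeR) that turned to −0.15 with library size only. Both genes that fell, singled out after their values were seen, encode enzymes of fatty acid synthesis and desaturation that many tissues use. Acaca, the acetyl-CoA carboxylase, had a log2 fold change of −0.57 (SE 0.07), and the desaturase Scd2 had one of −1.499 (SE 0.07).

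Of the genes of lipolysis, 7 of 8 rose and none fell (median 1.00). Mgll, the monoglyceride lipase that completes the breakdown of triglyceride, rose from 743 ± 51.3 to 3303 ± 25.4 normalized counts (SD, n = 3), and Pnpla2, the lipase that begins it, from 316 ± 24.9 to 996 ± 56.4. The gene not called, Adrb3, encodes the adrenergic receptor most typical of adipocytes and was singled out after its values were seen. Its normalized counts were 44.3 ± 12.4 and 41.6 ± 6.10 (SD, n = 3), with an adjusted p of 0.837 by edgeR. Per kb of annotated exon Adrb3 had 7.75 and 7.27 normalized counts, a level also seen among chemosensory receptors (95th percentile 12.4 and 11.8). Such a level cannot be told from background reads, so the missing call does not show an expressed gene that stayed unchanged.

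All 11 genes tested of other lipid droplet, seipin and caveolar proteins rose (median 1.16). Cav1 and Cavin1, which form the caveolae that are dense on adipocytes and endothelium, rose by log2 fold changes of 1.45 and 1.36. Fitm1, a droplet protein of muscle, rose by 1.90 (SE 0.29) from a low level of 19.4 ± 6.46 normalized counts (SD, n = 3). Cideb was under the filter. Of the genes of lipoprotein lipase handling and fatty acid uptake, 7 of 9 rose (median 1.13). Cd36, a fatty acid transporter of adipocytes, endothelium and macrophages, rose by a log2 fold change of 1.85 (SE 0.07), and Fabp3, the fatty acid-binding protein of muscle, by 2.93 (SE 0.16). The genes not called were Fabp5 and Lmf1, whose product folds the lipase (log2 fold change 0.02, adjusted p = 0.932 by edgeR). Lmf1, at 6.45 and 6.61 normalized counts per kb, was as low as chemosensory receptors too, while Fabp5 (872 and 911) was far above them.

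Of the adipokine receptors and other adipokines, 11 of 13 tested rose and none fell (median 0.61), with 7 called with library size only and 5 against a 1.5-fold change. C3, the central complement component, rose from 547 ± 42.5 to 1848 ± 49.0 normalized counts (SD, n = 3), and Retnla, a resistin-like molecule of adipose tissue and macrophages, by a log2 fold change of 1.72 (SE 0.14). Cfb, the substrate of adipsin, was under the filter, with 5.48 ± 3.22 and 14.8 ± 8.91 normalized counts (SD, n = 3). Of the brown adipocyte genes, 3 of 6 rose (median 0.30). Ucp1, the uncoupling protein that defines brown adipocytes, was not called, with 30.8 ± 7.96 and 23.4 ± 8.45 normalized counts (SD, n = 3) and an adjusted p of 0.469 by edgeR. Cox8b and Cox7a1, which rose by log2 fold changes of 2.195 and 1.43, encode cytochrome oxidase subunits of skeletal and heart muscle as well.

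**Figure D3:**
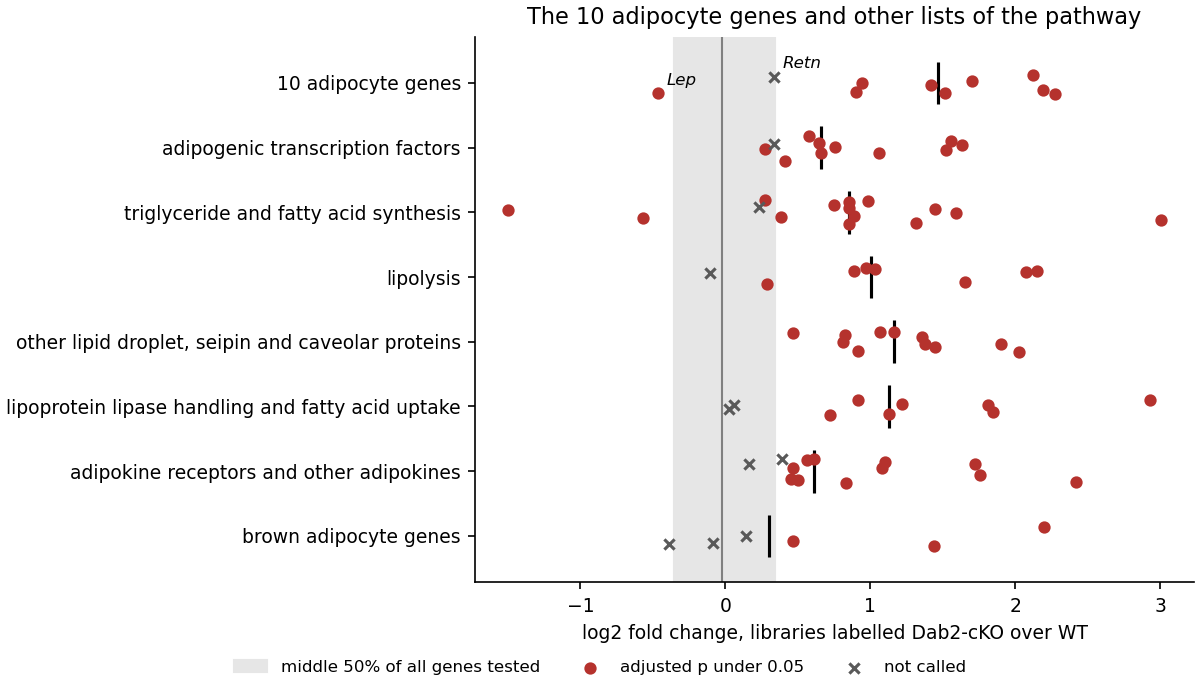
Log2 fold change of the Dab2-cKO-labelled libraries over the WT-labelled ones for the 10 adipocyte genes and the genes tested of 7 further lists. Circles are genes with an adjusted p under 0.05, crosses are genes not called, black bars are list medians and the grey band holds the middle 50% of all genes tested around their median of −0.02. The median of the 10 genes, 1.47, is to the right of the band, and Lep and Retn are the genes nearest 0 among the 10.

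Markers of several other cell types moved with the adipocyte genes. Their calls stand beside 16.8% of all genes tested called higher, and 30.1% of those with a mean count of at least 50. The summed normalized counts of 10 fibroblast markers were 103337 to 125065 in the WT-labelled libraries and 362330.0 to 382223 in the Dab2-cKO-labelled ones, and all 10 were called higher. All 10 endothelial markers rose, with sums of 1938 to 2146 and 6585 to 6816, among them Pecam1, a junction protein of endothelial cells, with a log2 fold change of 1.88. All 8 macrophage markers rose, with sums of 1414 to 1440.0 and 6522 to 6831, among them Mrc1, the mannose receptor, with a log2 fold change of 2.55. Of 10 skeletal muscle markers 9 rose, with sums of 26553 to 30987 and 152766 to 155932. Acta1, the actin of skeletal muscle, rose by 2.65 on the log2 scale. No defining marker of these lists was at 0, but a few were as low per kb as chemosensory receptors. In the WT-labelled libraries, 8 of 10 endothelial and 9 of 10 fibroblast markers exceeded the receptors' 95th percentile. In the Dab2-cKO-labelled ones, 10 and 9 did. Every macrophage and skeletal muscle marker exceeded it in both groups.

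All 10 markers of the sebaceous gland, a further lipid-making tissue of the skin, rose as well, with sums of 10244 to 11749 and 33418 to 34521. Awat1, a wax ester synthase of sebocytes, rose by a log2 fold change of 2.71 (SE 0.12), and Scd1, the desaturase of sebaceous glands and adipocytes, by 1.65 (SE 0.07). Of 8 markers of adipocyte progenitors 5 rose and 2 fell, with sums of 2521 to 2693 and 5098 to 5180.0. Ly6a, the antigen Sca-1, rose by a log2 fold change of 3.09 (SE 0.10), while Cd24a fell by 0.47 (SE 0.08). The other marker that fell, Dpp4, named after its values were seen, had a log2 fold change of −0.75 (SE 0.09). Of 10 markers of the HFSC bulge 7 rose and 3 fell, with sums of 19050 to 21812 and 32745 to 33709. Sox9, a factor of HFSCs, fell by 1.45 on the log2 scale (SE 0.08), and the others that fell were Lhx2 (log2 fold change −1.43) and Lgr5 (−1.32). Nfatc1, another factor of HFSCs, rose by 1.32. Lhx2, Lgr5 and Nfatc1 were named after their values were seen.

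The sum of the 10 adipocyte genes was 7500.0 to 8116 normalized counts in the WT-labelled libraries and 22544 to 23380 in the Dab2-cKO-labelled ones, 2.96 times as high by the means. The same ratio was 1.99 for adipocyte progenitors, 3.05 for the sebaceous gland, 3.25 for fibroblasts, 3.26 for endothelial cells, 4.66 for macrophages, 5.35 for skeletal muscle and 1.62 for the HFSC bulge. The TMM factors that scale the libraries moved with the groups too, at 1.11 to 1.21 in the WT-labelled libraries and 0.847 to 0.876 in the Dab2-cKO-labelled ones. The part of these other cell types and of the scaling in the differences of the adipocyte genes was not tested.

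**Figure D4:**
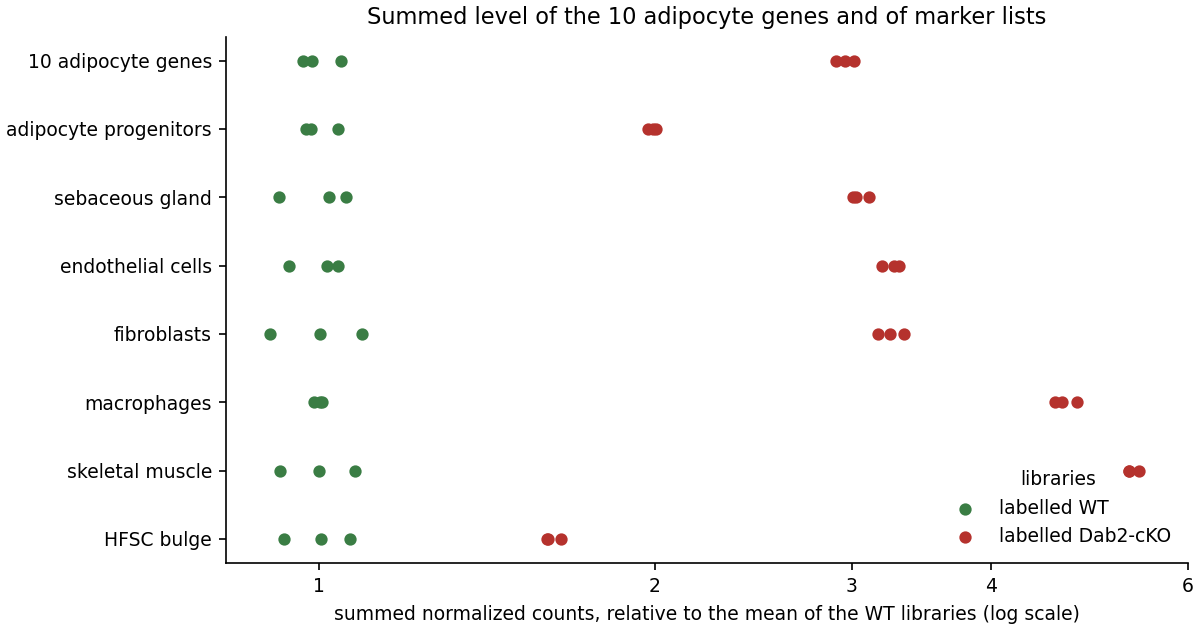
Summed normalized counts of the 10 adipocyte genes and of 7 marker lists in each library, relative to the mean of the WT-labelled libraries (log axis). The adipocyte genes in libraries labelled Dab2-cKO (red) sit with the sebaceous, endothelial and fibroblast lists at about 3, below macrophages (4.66) and skeletal muscle (5.35).

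The genes whose profile over the 6 libraries was most like the summed profile of the 10 adipocyte genes were Tshz2, Fstl1, Podn, Spock2 and Dcn. Likeness was measured as the root mean square difference of centred log2 normalized counts over 14767 genes that averaged 50 normalized counts or more. It was 0.0226 for Tshz2, which encodes a zinc finger protein, 0.0302 for Fstl1, which encodes a secreted glycoprotein, and 0.0346 for Dcn, the proteoglycan decorin that is in the fibroblast list. The median over all genes compared was 0.765, and 131 genes, 0.887%, lay within 0.1. The 6 libraries form 2 groups, so this likeness mostly reflects the size of the difference between them.

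The 8 higher calls were made under each of 14 alternative settings. The log2 fold change of Car3 lay between 1.84 and 2.29, that of Adipoq between 1.27 and 1.80 and that of Lpl between 0.48 and 0.98, with the lowest value of each given by library size only. Lep ranged from −0.89, also with library size only, to −0.21, and was called lower in 10 of 14 settings. Retn ranged from −0.10 to 0.53 and was called in none, with adjusted p-values between 0.0574 and 1 by edgeR or DESeq2.

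**Figure D5:**
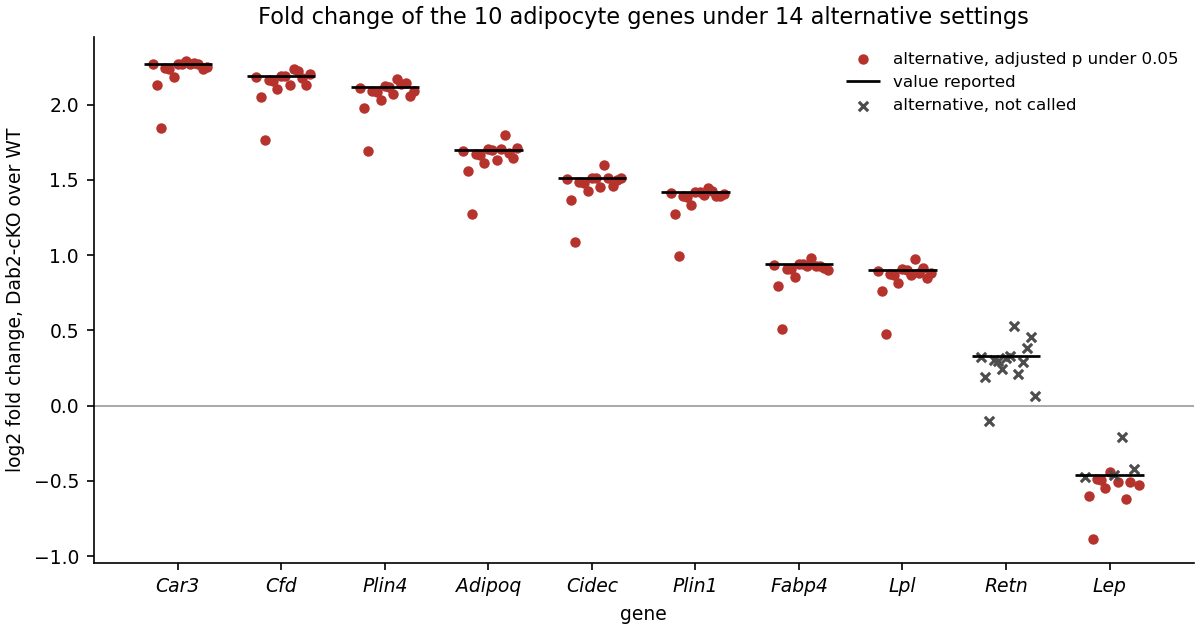
Log2 fold change of each adipocyte gene as reported (black bar) and under 14 alternative settings (red circle where the adjusted p was under 0.05, grey cross where not). The 8 genes from Car3 to Lpl stay above 0 with circles throughout, Retn has crosses around 0.33 and Lep lies below 0 with 4 crosses.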

How the data were processed

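The authors made libraries from 5 ng of total RNA with a SMARTer Stranded kit, trimmed paired-end reads with fastp 0.23.4, aligned them to GRCm39 with HISAT2 2.2.1 and SAMtools 1.6, and deposited raw counts per gene from featureCounts 2.0.6. The annotation release, the strand option and how multimapping reads were counted are not given in the sources used here. A second deposited table, with the authors' own fold changes and p-values from DESeq2 1.42.0, was not used.

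Columns headed FL-FL were taken as Dab2-cKO from the title of the series. Both genotypes carry floxed alleles, so every direction rests on this assignment. Genes were filtered, TMM-normalized and compared in edgeR 4.0.16 (R 4.3.3) by its robust quasi-likelihood test with Benjamini-Hochberg adjustment over 32149 genes, and called at an adjusted p under 0.05. The code was tested on simulated data. Normalized counts are counts per effective library size, scaled to the mean of these sizes. Library totals were 7040032 to 11696457 counts, and replicates differed beyond sampling noise, so errors after ± are the SD between replicates. The SE of a log2 fold change is its absolute value divided by the square root of edgeR's quasi-likelihood F. No sample was left out. The labels call the samples biological replicates. Exon lengths and coordinates came from GENCODE vM39, which matched 56323 of 56941 gene IDs (98.9%). The 10 genes and all lists were chosen with earlier results of these data known. Named from each list were the 2 called genes with the largest absolute fold change among those averaging 20 normalized counts or more and the 2 with the highest level per kb, besides the 10 genes, Dab2, sort markers, near paralogs and the 5 nearest profiles. Some of these are described in the text and others counted only. Alternatives were DESeq2, upper-quartile scaling, library size only, TMM without mitochondrial and the 100 most abundant genes, no low-count filter, a minimum mean count of 50, a replicate block, a test against a 1.5-fold change and each library left out in turn.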

Additional observations from a re-analysis of the deposited data

How the results depend on the processing

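Of 140 recomputed fold changes of the 10 adipocyte genes, 135 kept their direction and side of the threshold, 4 of Lep lost the call and that of Retn turned to −0.10 with library size only. Of 850 recomputed for the 61 other genes named by rule, 818 kept both, 20 lost and 3 gained a call, and 9 reversed. With library size only, these were Cebpb (−0.15), Fasn (−0.15), Fabp5 (−0.36) and Retnlb (−0.31). Upper-quartile scaling gave −0.0801 for Fabp5 and −0.0199 for Retnlb, and keeping genes with a mean count of 50 or more gave −0.0233 for Fabp5. With each library left out, Retnlb ranged from −0.22 (without WT replicate 3) to 0.46 and was −0.17 without Dab2-cKO replicate 1. The cause was not tested. Over all genes, 9069 were called, 13854 with library size only and 3358 against a 1.5-fold change, which asks for a larger difference. The share of higher among called genes was 59.4%, but 43.5% under upper-quartile scaling and 19.4% with library size only. Leaving out each library gave 7996 to 8546 genes called, 8 to 9 of the 10 adipocyte genes and 60 to 66 of the pathway genes. The labels do not say that the replicate numbers pair the samples. The correlations of deviations between libraries of the same number were only 0.02, 0.01 and 0.008, although each library correlated best with its own number. Such small values cannot exclude a pairing. With a replicate block 8967 genes, 9 of the 10 adipocyte genes and 63 pathway genes were called, and Lep had a log2 fold change of −0.44 with an adjusted p of 0.0299 by edgeR. Retn and Lep had 68 to 235 counts a library, and the spread between replicates limits their fold changes.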

Other observations

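Families of the 10 adipocyte genes that the comparisons above do not describe held genes called higher, lower or not at all. Of all genes tested, 28.2% were called by edgeR, 16.8% as higher and 11.5% as lower. The lipases and fatty acid-binding proteins below were called at about that share, and the families are small, so their counts are a description only. Of 8 C1q/TNF-related proteins tested, relatives of adiponectin, 6 were higher in the Dab2-cKO-labelled libraries, 1 was lower and 1 was not called by edgeR (5 higher and 1 lower with library size only). C1qtnf1 rose from 90.0 ± 4.13 to 415 ± 20.5 normalized counts (SD, n = 3) and C1qtnf9 from 63.9 ± 7.92 to 207 ± 38.6. Of 11 relatives of Car3, 3 rose and 2 fell (2 and 3 with library size only). Car6, a secreted carbonic anhydrase, fell from 504 ± 29.2 to 91.0 ± 8.80 normalized counts (SD, n = 3), a log2 fold change of −2.47 (SE 0.12, adjusted p = 8.48e-29 by edgeR), while Car13, a cytosolic one, rose by 0.67 (SE 0.10). The direction of Car6 was thus opposite to that of Car3.

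Of 4 lipases related to Lpl none rose and 1 fell (4 fell with library size only, 3 under upper-quartile scaling, 2 with a minimum mean count of 50 or without Dab2-cKO replicate 2, and none against a 1.5-fold change). Lipg, the endothelial lipase, had 154 ± 24.96 and 102 ± 7.19 normalized counts (SD, n = 3), a log2 fold change of −0.60 (SE 0.16, adjusted p = 0.00159 by edgeR). The cell type that Lipg came from was not tested. Of 8 fatty acid-binding proteins tested besides Fabp4, Fabp3 rose, Fabp12 fell by 1.00 on the log2 scale (SE 0.27) and 6 were not called, while with library size only 3 of the 8 were called lower. Without WT replicate 1, Fabp12 was not called (log2 fold change −0.77, adjusted p = 0.0573 by edgeR). Of 3 resistin-like molecules, Retnla rose and Retnlb, at 10.8 ± 5.29 and 11.4 ± 4.22 normalized counts (SD, n = 3), was not called (adjusted p = 0.910 by edgeR).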
